A study of Homo sapiens with 2 samples.

Results

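The genes described here are 47 genes of cell death and of the p53 response: the BCL2 family, the death receptors with their adaptors, the caspases with their regulators, and p53 target genes. They were chosen by name, with earlier results of these data known. Of the 25268 gene symbols in the deposited tables, 46 matched by their own symbol, and TIGAR was found under its older symbol C12orf5. The data were RNA-seq of C4-2B MDVR cells, which descend from the prostate cancer line LNCaP, grow despite androgen deprivation (castration resistance) and are resistant to the antiandrogen enzalutamide. The Indocin group was 1 library from cells given 20 µM Indocin, which is indomethacin, a cyclooxygenase inhibitor, for 3 days. The DMSO group was 1 library from cells given the vehicle DMSO for the same 3 days. Both groups were grown with 20 µM enzalutamide, so the comparison shows Indocin on top of enzalutamide, in a single resistant line.

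Apoptosis through mitochondria is set by binding among BCL2 family proteins. Pro-survival members hold the effectors BAX and BAK1 in check, and BH3-only proteins bind the pro-survival members or the effectors and so favour release of cytochrome c, which assembles APAF1 and caspase 9. A separate route starts at death receptors on the cell surface, which recruit FADD and caspase 8. The transcription factor p53 raises many of these genes, and LNCaP cells are known to retain functional p53. Several of the same genes, among them PMAIP1, BBC3, TNFRSF10B and GADD45A, are also known targets of the stress factors ATF4 and DDIT3 (CHOP).

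Values are FPKM, fragments scaled by transcript length and library size, so levels of different genes can be set side by side. With 1 library per group there is no error across cultures and no test, and no difference below has a replicate check. The number of reads per library is unknown. Relative depth could be read from 1335 genes with a mean under 0.05 FPKM, whose values are small multiples of 1 fragment. For 45.5% of them the libraries differed by a simple fraction times 1.014 (tolerance 1%), where other factors took a median share of 2.40%, so a fragment had nearly equal worth in both. All 8 luminal prostate markers were present, at 58.1 to 362.3 FPKM in the Indocin library and 71.7 to 520.3 FPKM in the DMSO library. The basal, neuroendocrine and endothelial markers were all under 1 FPKM in both. Of the fibroblast and leukocyte markers, COL1A1 had 4.80 FPKM with Indocin and 4.54 FPKM with DMSO and CD68 had 5.86 and 6.51 FPKM in that order, while COL1A2, DCN and CD3E were listed at 0 in both libraries.

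Differences are given as the log2 ratio of FPKM + 1, Indocin over DMSO; for genes with low values this scale gives less than the fold in FPKM. A gene with a mean of at least 1 FPKM over the libraries was counted as measured, and a measured gene was called higher or lower at 1.5-fold (0.58 on the log2 scale). Of the 47 genes 44 were measured, and BCL2A1, HRK and BIRC3 were under the minimum. Among the 44, 3 were called higher with Indocin (6.82%) and none lower: GADD45A, PMAIP1 and BBC3. Among all 11958 measured genes, 2.19% were called higher and 0.744% lower (262 and 89 genes, or 323 and 59 after upper-quartile scaling). All 3 had a mean under 20 FPKM, where the module held 29 genes and 2.29% of all genes were called higher and 0.741% lower. All 3 were also past 2-fold, as were 0.753% of all measured genes on the higher side, with 0.0418% as far on the lower side. The other 41 genes lay between -0.36 and 0.41, and 33 of the 44 lay within 1.2-fold. At 1.2-fold, a smaller step looked at after the values were seen, 9 of the 44 were higher (20.5%) and 2 lower (4.55%), against 9.91% and 11.7% of all measured genes. The 9 were GADD45A, PMAIP1 and BBC3 with CASP8, TP53INP1, TNFRSF10B, BIRC2, XIAP and CASP4, and the 2 were GADD45G and TNFRSF10A. The median over the 44 was 0.04, against -0.03 for all measured genes.

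**Figure D1:**
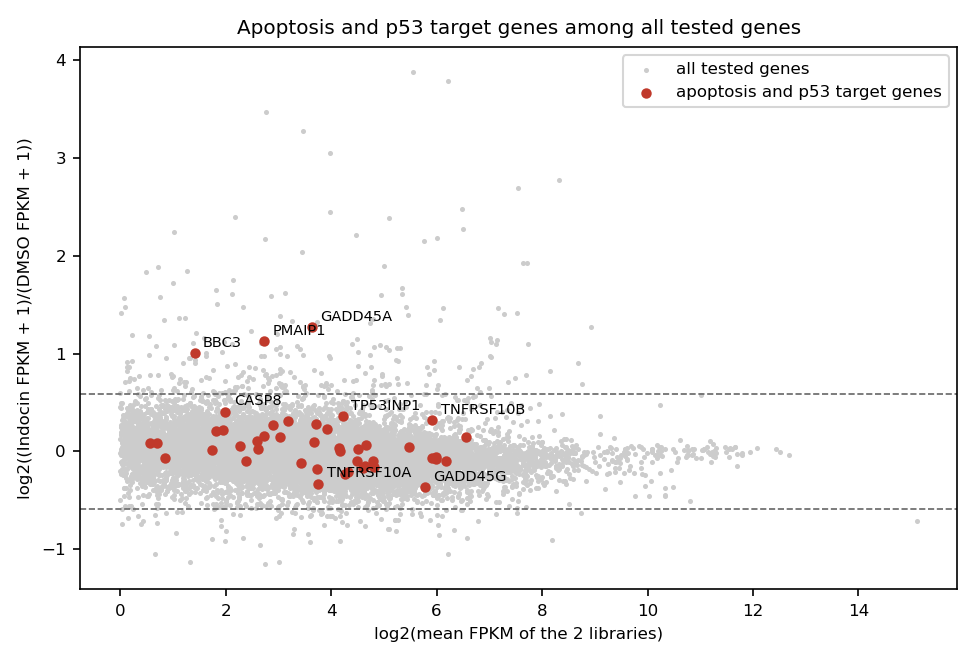
Each grey point is 1 of 11958 measured genes and each red point 1 of the 44 measured genes of cell death and the p53 response; the x axis is the log2 of the mean FPKM of the libraries and the y axis the log2 ratio of FPKM + 1, Indocin over DMSO, with dashed lines at 1.5-fold. GADD45A (1.27), PMAIP1 (1.13) and BBC3 (1.003) lie above the upper line, and no red point lies below the lower one.

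Among the BH3-only genes, PMAIP1 and BBC3 stood at over 2.5 times their DMSO level in FPKM, while 5 other measured members lay near 0. PMAIP1 encodes NOXA, which binds mainly MCL1. It had 9.50 FPKM in the Indocin library, against 3.80 FPKM in the DMSO library (log2 ratio 1.13, 2.50-fold in FPKM), the 66th highest ratio of 11958 genes. BBC3 encodes PUMA, which binds all the main pro-survival proteins. It had 3.88 FPKM with Indocin and 1.44 FPKM with DMSO (1.003, 2.70-fold in FPKM) and ranked 90th. With a pseudocount of 5 FPKM in place of 1 its ratio was 0.46 and it was no longer called. HRK, a BH3-only protein best known from neurons, was listed at 1.01 FPKM with Indocin and 0.207 FPKM with DMSO (0.74, 4.89-fold in FPKM). Its mean of 0.609 FPKM was under the minimum, so it was not counted.

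The remaining BH3-only genes differed little. BCL2L11 encodes BIM, another BH3-only protein whose gene DDIT3 is known to raise, and had 10.3 FPKM in the Indocin library and 11.3 FPKM in the DMSO library (-0.12). BID, which caspase 8 cleaves to link the death receptors to mitochondria, had 18.4 FPKM with Indocin and 21.4 FPKM with DMSO (-0.21). BAD, which growth factor signalling holds inactive by phosphorylation, had the highest level of the class, 58.8 and 61.6 FPKM in the same order (-0.07). BIK, an ER-resident member, had 18.0 FPKM with Indocin and 17.8 FPKM with DMSO (0.01), and BMF, known for its tie to the cytoskeleton, 1.55 and 1.40 FPKM in that order (0.09). The class median was 0.01 over 7 measured genes, and -0.07 with a minimum mean of 5 FPKM, so it has no firm direction. PMAIP1, BBC3 and HRK together made up 11.9% of the summed BH3-only FPKM with Indocin and 4.57% with DMSO, because BAD alone held 48.4% and 51.8% of it in that order.

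The 250 bases before the annotated start of the 3 BH3-only genes that stood highest are given here as RefSeq lists them on GRCh38.p14, a later build than the one the submitters' processing notes name. They are shown because ATF and CREB factors are known to bind TGACGT, the core of the cAMP response element, and ATF4 with C/EBP partners to bind TGATGNAA. Both strands were searched, and capitals mark a match to either motif. The PMAIP1 window is chr18:59899746-59899995, plus strand, the BBC3 window chr19:47232668-47232917, minus strand, and the HRK window chr12:116881442-116881691, minus strand.
PMAIP1: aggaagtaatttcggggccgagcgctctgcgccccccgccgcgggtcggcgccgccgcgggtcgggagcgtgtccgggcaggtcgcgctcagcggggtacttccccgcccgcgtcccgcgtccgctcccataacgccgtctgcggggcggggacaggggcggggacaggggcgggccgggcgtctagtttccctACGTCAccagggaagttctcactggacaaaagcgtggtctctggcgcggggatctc
BBC3: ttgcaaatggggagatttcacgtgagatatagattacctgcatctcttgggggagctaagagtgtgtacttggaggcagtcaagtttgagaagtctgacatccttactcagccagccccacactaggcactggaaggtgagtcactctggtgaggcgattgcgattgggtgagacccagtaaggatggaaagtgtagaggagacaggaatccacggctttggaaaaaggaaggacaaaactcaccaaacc
HRK: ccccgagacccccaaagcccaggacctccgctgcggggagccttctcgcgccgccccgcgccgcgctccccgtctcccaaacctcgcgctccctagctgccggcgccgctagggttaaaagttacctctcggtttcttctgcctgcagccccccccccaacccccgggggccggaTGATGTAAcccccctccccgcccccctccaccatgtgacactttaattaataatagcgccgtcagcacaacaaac

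The PMAIP1 window held TGACGT on the reverse strand, beginning 56 bases before the start, and the HRK window held TGATGTAA 75 bases before it. Neither motif is in the BBC3 window. Any windows of the 47 genes on chr8 were left out, while the windows of all genes kept that chromosome. Windows were searched for 37 of the 47 genes, and GADD45A was not among them. The genes outside these 37 were not searched, so nothing is known of their motifs. Of the 37, TGACGT was found in 5 (BAD, BIRC2, PMAIP1, TIGAR and XPC), against 7.10% of all 35116 windows. Those windows were not limited to measured genes. TGATGNAA was found in 3 of the 37 (BCL2A1, GADD45G and HRK), against 3.14% of all windows. The full element TGACGTCA, which contains TGACGT, was found in BIRC2 alone, against 1.65%. A p53 half-site was found in 6 of the 37 (BAK1, CASP8, CASP9, FAS, FDXR and RPS27L), against 5.57%. Of the measured genes with any of these matches, PMAIP1 was the only one called, and a match is a run of letters and not a measured site.

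Pro-survival genes and effectors had nearly the same level in both libraries. BCL2L1, which encodes BCL-XL, had 61.8 FPKM in the Indocin library and 65.2 FPKM in the DMSO library (-0.08). MCL1, a short-lived protein and the main partner of NOXA, had 61.8 FPKM with Indocin and 64.6 FPKM with DMSO (-0.06). These genes made up 83.3% of the summed pro-survival FPKM with Indocin and 84.1% with DMSO. BCL2L2, which encodes BCL-W, had 23.0 FPKM with Indocin and 22.6 FPKM with DMSO (0.03); its reads may in part come from its readthrough transcript with PABPN1. BCL2 itself was low, at 1.72 FPKM with Indocin and 1.86 FPKM with DMSO (-0.07), and BCL2A1 was listed at 0 in both. The class median was -0.07 as deposited and 0.01 with an equal FPKM sum, and the directions of BCL2L1 and MCL1 turned with the scaling of the libraries.

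All 3 effectors were slightly lower with Indocin under every scaling tried, and none was past 1.5-fold. Of all 11958 measured genes, 6603 were below 0 as deposited and 4740 with an equal sum. The median of the effectors was -0.15 as deposited and -0.07 with an equal sum. BAX, which moves to mitochondria and permeabilises the outer membrane, had 69.5 FPKM with Indocin and 74.5 FPKM with DMSO (-0.10). BAK1, its partner resident in that membrane, had 23.6 FPKM with Indocin and 26.2 FPKM with DMSO (-0.15). BOK, an effector that pro-survival proteins bind poorly, had 22.7 FPKM with Indocin and 25.7 FPKM with DMSO (-0.17). Set against MCL1 in the same library, PMAIP1 stood at 15.4% of its level with Indocin and 5.88% with DMSO. BBC3 stood at 6.29% of the BCL2L1 level with Indocin and 2.21% with DMSO. Both are ratios of RNA, and the amounts of the proteins were not measured. Over whole classes the shift was small: the summed BH3-only FPKM was 81.8% of the summed pro-survival FPKM with Indocin and 77.2% with DMSO.

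**Figure D2:**
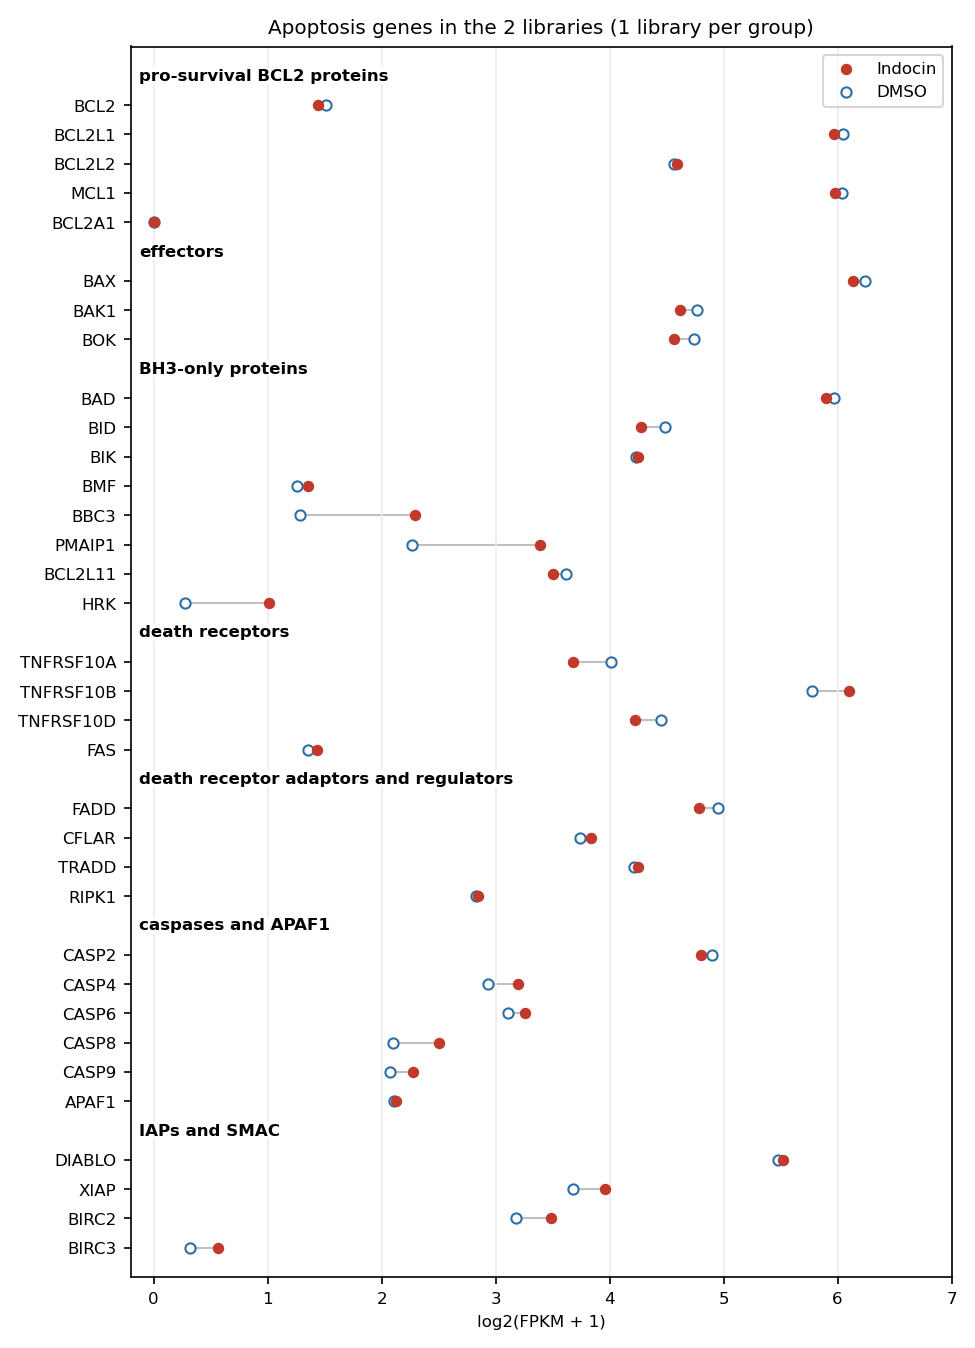
Each row is a gene, grouped by class, with a filled red point for the Indocin library and an open blue point for the DMSO library on a log2(FPKM + 1) axis; each point is 1 library. BBC3, PMAIP1 and HRK show the widest gaps, TNFRSF10B lies to the right with Indocin, and the pro-survival and effector pairs nearly coincide.

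The receptors for the death ligand TRAIL differed in direction. TNFRSF10B encodes DR5, a signalling receptor, and had 67.4 FPKM in the Indocin library and 53.8 FPKM in the DMSO library (0.32, 1.25-fold in FPKM). TNFRSF10A, the other signalling receptor, DR4, had 11.8 FPKM with Indocin and 15.1 FPKM with DMSO (-0.33). TNFRSF10D, a decoy whose death domain is truncated, had 17.6 FPKM with Indocin and 20.9 FPKM with DMSO (-0.23). TNFRSF10B thus made up 69.6% of the summed FPKM of these 3 receptors with Indocin and 59.9% with DMSO. None of the 3 was past 1.5-fold, their directions held under every scaling, and as close paralogs they can share reads. FAS, the receptor of FAS ligand, was low in both, at 1.70 FPKM with Indocin and 1.55 FPKM with DMSO (0.08).

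Transcripts of the adaptors and regulators that pass the receptor signal on were close to even, while that of CASP8 was somewhat higher with Indocin. FADD, the adaptor that brings caspase 8 to the receptor, had 26.6 FPKM with Indocin and 29.9 FPKM with DMSO (-0.16). CFLAR, which encodes the caspase 8 inhibitor FLIP, had 13.2 FPKM with Indocin and 12.4 FPKM with DMSO (0.09). TRADD, the adaptor of the TNF receptor, had 18.0 and 17.5 FPKM in the same order (0.04), and the kinase RIPK1 6.21 and 6.09 FPKM (0.02). CASP8, the initiator caspase of this route, had 4.68 FPKM with Indocin and 3.28 FPKM with DMSO (0.41, 1.43-fold in FPKM), the highest ratio of the 44 genes that was not called. The level of CASP8 was 35.3% of that of CFLAR with Indocin and 26.6% with DMSO.

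Caspases, APAF1 and the inhibitors of apoptosis were on the higher side with Indocin by small amounts: 8 of 9 measured genes had ratios above 0 as deposited and under each scaling, and none was past 1.5-fold. Of all measured genes 44.8% were above 0 as deposited, 58.9% after upper-quartile scaling and 60.4% with an equal sum, so the background moved with the scaling. The median of the 9 was 0.21, against -0.03 for all genes. CASP9, the initiator caspase of the mitochondrial route, had 3.85 FPKM with Indocin and 3.20 FPKM with DMSO (0.21), while its activating partner APAF1 had 3.37 and 3.31 FPKM in the same order (0.02). CASP4, an inflammatory caspase, had 8.18 FPKM with Indocin and 6.63 FPKM with DMSO (0.27). CASP6, an executioner caspase, had 8.59 FPKM with Indocin and 7.64 FPKM with DMSO (0.15). CASP2, which acts downstream of the PIDD1 complex, was the exception, at 26.9 FPKM with Indocin and 28.8 FPKM with DMSO (-0.10).

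The inhibitor of apoptosis XIAP, which blocks caspases directly, had 14.5 FPKM with Indocin and 11.8 FPKM with DMSO (0.28). BIRC2, the ubiquitin ligase cIAP1, had 10.2 FPKM with Indocin and 8.03 FPKM with DMSO (0.31). Its paralog BIRC3 was under the minimum mean, at 0.483 FPKM with Indocin and 0.247 FPKM with DMSO. DIABLO encodes SMAC, which mitochondria release to relieve XIAP, and had 45.0 FPKM with Indocin and 43.5 FPKM with DMSO (0.05). The level of XIAP was 32.3% of that of DIABLO with Indocin and 27.2% with DMSO.

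**Figure D3:**
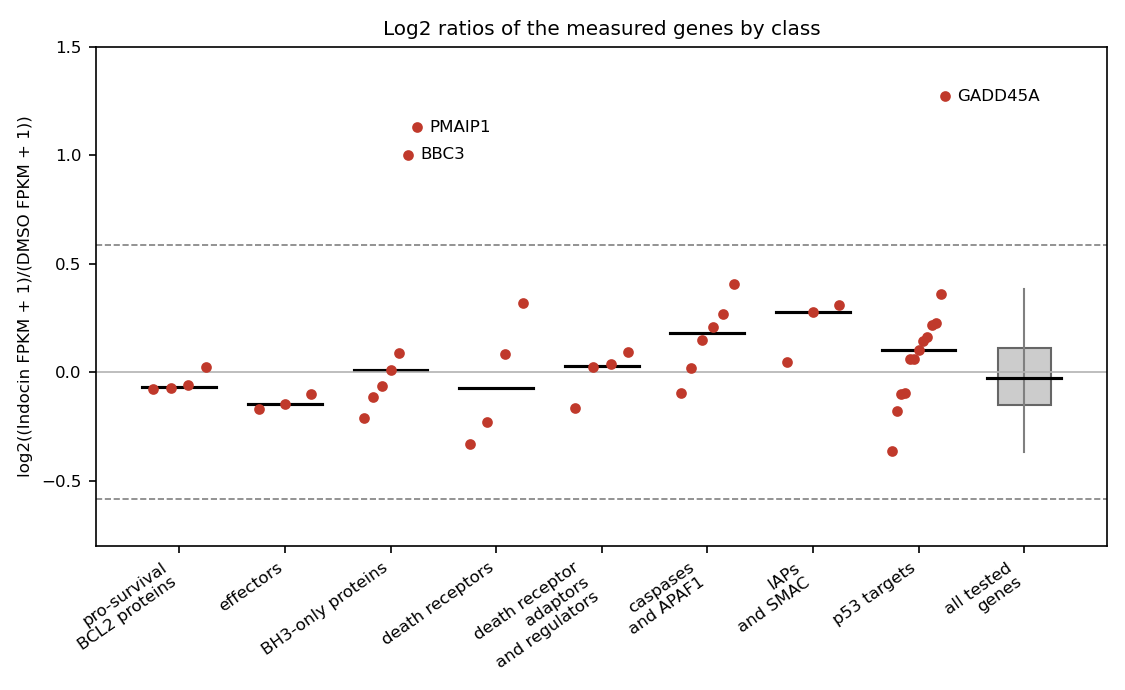
Each point is a measured gene and each black bar the median of its class; the y axis is the log2 ratio of FPKM + 1, Indocin over DMSO, with dashed lines at 1.5-fold. The grey box spans the quartiles of all 11958 measured genes (-0.15 and 0.11) and its line the 5th to the 95th percentile. PMAIP1, BBC3 and GADD45A are the points above the upper dashed line, and the class medians lie between -0.15 and 0.28.

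Of the 13 genes classed here as p53 targets, all measured, 1 was called higher and none lower (2.19% and 0.744% of all measured genes), with a median of 0.10. Other genes that p53 raises, PMAIP1 and BBC3 among them, were counted in their own classes above. GADD45A, a stress sensor that binds PCNA and activates MAP kinase signalling, had 18.0 FPKM in the Indocin library and 6.88 FPKM in the DMSO library (1.27, 2.62-fold in FPKM), the 56th highest ratio of all genes. Its paralogs did not share this. GADD45B had 5.00 FPKM with Indocin and 5.41 FPKM with DMSO (-0.10). GADD45G had 48.0 FPKM with Indocin and 62.0 FPKM with DMSO (-0.36), the lowest ratio of the 44 genes. GADD45A accordingly made up 25.4% of the summed FPKM of the 3 paralogs with Indocin and 9.26% with DMSO.

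The other p53 targets differed less and in both directions. TP53INP1, which promotes p53 phosphorylation and autophagy, had 21.0 FPKM with Indocin and 16.1 FPKM with DMSO (0.36). The nucleotide excision repair genes had ratios on either side of 0: XPC had 16.5 FPKM with Indocin and 14.0 FPKM with DMSO (0.23), and DDB2 had 12.4 and 14.2 FPKM in the same order (-0.18). ZMAT3, an RNA-binding protein that acts in splicing, had 4.20 FPKM with Indocin and 3.48 FPKM with DMSO (0.22). The quinone oxidoreductase gene TP53I3 had 7.03 FPKM with Indocin and 6.19 FPKM with DMSO (0.16). FDXR, the mitochondrial ferredoxin reductase, had 21.8 FPKM with Indocin and 23.4 FPKM with DMSO (-0.10). PHLDA3, an AKT inhibitor, had 25.7 FPKM with Indocin and 24.6 FPKM with DMSO (0.06).

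The last 3 genes of this class were also close to even. TIGAR, which lowers glycolytic flux, had 4.96 FPKM with Indocin and 4.72 FPKM with DMSO (0.06). MDM4, itself an inhibitor of p53, had 6.26 FPKM with Indocin and 5.75 FPKM with DMSO (0.10). RPS27L had the highest level of all 47 genes, 98.5 FPKM with Indocin and 89.0 FPKM with DMSO (0.14), and is a close paralog of the ribosomal protein gene RPS27, so its reads may be shared.

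**Figure D4:**
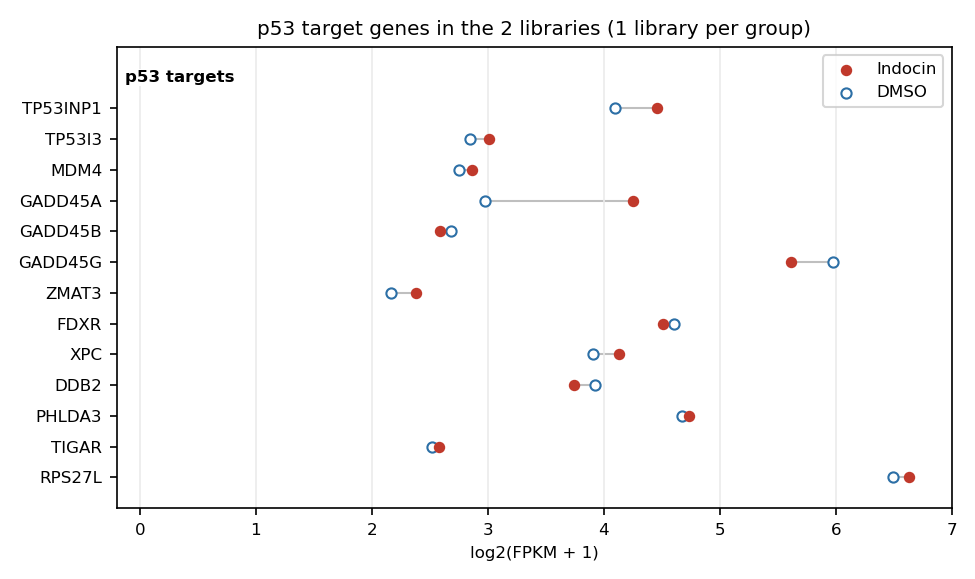
Each row is a p53 target gene, with a filled red point for the Indocin library and an open blue point for the DMSO library on a log2(FPKM + 1) axis; each point is 1 library. GADD45A shows the widest gap, to the right with Indocin, and GADD45G lies to the left.

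Further genes of the same pathways, in lists that were also written with earlier results of these data known, were looked at beside these 47. Of 19 measured further p53 targets, 2 were called higher and none lower (median 0.07): SESN2, a regulator of mTORC1, at 37.0 FPKM with Indocin and 7.22 FPKM with DMSO (2.21), and GDF15, a stress cytokine, at 88.5 and 19.2 FPKM in the same order (2.15). The cell cycle inhibitor CDKN1A had 112.4 FPKM with Indocin and 79.0 FPKM with DMSO (0.50), and SESN1 had 12.7 and 8.87 FPKM (0.47). Over both p53 lists 3 of 32 measured genes were called higher, GADD45A, SESN2 and GDF15, and none lower, against 2.19% and 0.744% of all measured genes. Genes of other classes that p53 is also known to raise were outside these lists. Among them are PMAIP1 and BBC3, both called higher, and BAX, FAS and TNFRSF10B, none of them called. The 29 within 1.5-fold had a median of 0.06, with 18 ratios above 0 and 11 below. The 32 had a median of 0.09, with 21 ratios above 0 and 11 below. The counts above 0, 9 of the 13 and 12 of the 19, were the same under each scaling. Of all measured genes, 44.8% were above 0 as deposited, 58.9% after upper-quartile scaling and 60.4% with an equal sum.

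Among 12 measured further genes of the caspase route none was called, and 10 had ratios below 0 (9 after scaling to an equal upper quartile or an equal sum), as had 6603 of all 11958 genes as deposited; the list had a median of -0.17. The furthest were BIRC5, the mitotic inhibitor of apoptosis survivin, at 59.4 FPKM with Indocin and 80.2 FPKM with DMSO (-0.43), the mitochondrial nuclease ENDOG (-0.35) and PIDD1, the scaffold that activates caspase 2 (-0.28). Of 5 measured further BCL2 family genes none was called (median -0.05), with BCL2L12 at -0.38, BCL2L13 at 0.31, BCL2L14 at -0.13 and BNIP3L at 0.12. Of 4 measured further receptors and signalling genes none was called (median 0.02). TRAF2, the adaptor that carries cIAP1 to the TNF receptor, was lower at 15.0 FPKM with Indocin and 21.2 FPKM with DMSO (-0.48), and TNFRSF1A, the TNF receptor, was higher at 67.8 and 50.8 FPKM (0.41). TNFRSF25 had a ratio of 0.15 and TNFRSF21 of -0.10.

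The stress factors ATF4 and DDIT3, which are known to act on PMAIP1, BBC3, GADD45A and TNFRSF10B, were themselves far higher in the Indocin library. ATF4 had 689.0 FPKM with Indocin and 283.9 FPKM with DMSO (1.28), and its partner DDIT3 had 105.4 and 22.5 FPKM in the same order (2.18). ATF3 (2.38) and TRIB3 (2.48), which were put in the same list, were higher as well. The part of any of these in the values of PMAIP1, BBC3 and GADD45A was not tested. In these bulk libraries, more cells with a transcript and more of it per cell cannot be told apart.

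The order of the called genes depended on the pseudocount, since their levels are low. With 0.1 FPKM, GADD45A (1.38) and BBC3 (1.37) lay above PMAIP1 (1.30), and HRK reached 1.86. With 5 FPKM the ratios were 0.96 for GADD45A, 0.72 for PMAIP1 and 0.46 for BBC3, and HRK stood at 0.21. Scaling the libraries moved these ratios by less than 0.1.

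**Figure D5:**
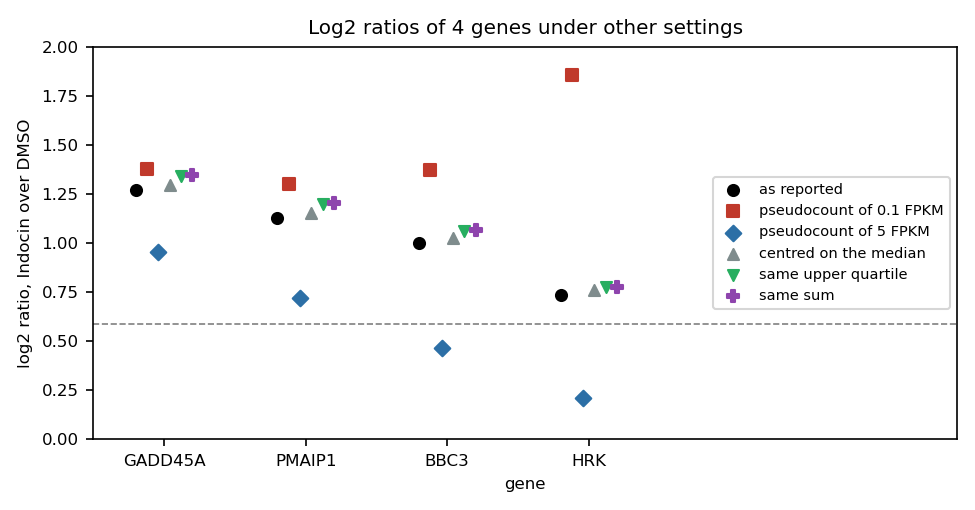
The log2 ratio, Indocin over DMSO, of GADD45A, PMAIP1, BBC3 and HRK as reported and under other pseudocounts and library scalings; the dashed line marks 1.5-fold. GADD45A and PMAIP1 lie above the line in each setting drawn, while BBC3 (0.46) and HRK (0.21) fall under it with a pseudocount of 5 FPKM.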

How the data were processed

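Strand-specific mRNA libraries were made from total RNA (TRIzol, KAPA kit), per the labels' protocols. The deposited values were FPKM per gene symbol, per the file headers, computed by the authors. Tools named in the submitters' processing notes are TopHat, Cufflinks, Cuffnorm, StringTie and bcl2fastq, with GRCh37 and hg19 as builds. Which tool did what, in which version, with which annotation and strand setting, is not given in the sources used here. FPKM are not counts, so no count test was run. The FPKM summed to 583096 in the Indocin library and 617510 in the DMSO library.

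From these values the log2 ratio of FPKM + 1 was computed with pandas 2.3.3 and numpy 2.4.6 in Python 3.11.15. Measured genes had a mean of at least 1 FPKM. Short RNA genes were left out by symbol. With 1 library per group nothing was tested, so classes are described by counts and medians beside all measured genes. The genes and lists were chosen with earlier results of these data known. All 47 genes were to be named, and up to 4 of each further list by the size of the ratio. The motifs were chosen after the values were seen. The calculation was tested on simulated data with planted changes and an assumed depth. That checks the arithmetic, and it does not bear on the noise between cultures or on the calls made here. Some genes are not reported here.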

Additional observations from a re-analysis of the deposited data

How the results depend on the processing

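Each group had 1 library, so no alternative could leave one out. No paired analysis was possible because the groups share no more than 1 replicate number. The 3 genes called higher with Indocin were also 3 with a pseudocount of 0.1 FPKM, at 2-fold, with short RNA genes kept and under each scaling. They were 2 with a pseudocount of 5 FPKM, where BBC3 was lost, and 2 with a minimum mean of 5 FPKM, which BBC3 did not reach. With no minimum mean HRK made them 4. None of the 47 genes was called lower under any of these. With a minimum mean of 5 FPKM the median of the death receptors was -0.23 (-0.07 as reported) and that of the further receptors and signalling genes -0.10 (0.02 as reported), since fewer genes entered. Medians near 0 turned in sign: that of the BH3-only genes was -0.07 with a minimum mean of 5 FPKM (0.01 as reported), and that of the pro-survival genes was 0.01 with the same sum (-0.07 as reported). That of the further BCL2 family genes was 0.03 with either (-0.05 as reported). The median of the stress factor list, which also held TRIB3, was 2.00 with a pseudocount of 5 FPKM and 2.18 as reported. Over all genes, 420 were higher and 188 lower with a pseudocount of 0.1 FPKM, 126 and 36 with 5 FPKM, 90 and 5 at 2-fold, 168 and 67 with a minimum mean of 5 FPKM, and 330 and 55 with the same sum, against 262 and 89 as reported. BCL2L1, MCL1 and BAD were the 3 of 44 measured genes whose sign turned with the scaling. The median of all genes was 0.04 with the same upper quartile and 0.05 with the same sum. Read depth is unknown, so the counting error behind low values such as those of HRK cannot be given.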
